A study of Danio rerio with 15 samples.

Results

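Nuclear hormone receptors are transcription factors that small, fat-soluble molecules can switch on, among them retinoic acid, steroids, bile acids, vitamin D and many pollutants. Most bind DNA as pairs, often with a retinoid X receptor as the partner. Some of them recruit corepressors when empty and coactivators when a ligand is bound. In a fish larva they take part in patterning, photoreceptor identity, the clock, and sterol and drug metabolism. The genes described here were chosen by symbol among those whose base mean, the mean normalized read count over the libraries of a table, was at least 10 in each of 2 deposited tables. The symbols taken were those of the nr families, the retinoic acid, retinoid X, ROR, estrogen, estrogen-related and vitamin D receptors, ar and pgr. The Rev-erb genes nr1d1, nr1d2a and nr1d2b, the corticosteroid receptor genes nr3c1 and nr3c2, nr5a2 and the nr4a genes were left out. Of 36351 genes 53 matched and 50 reached the minimum. By the authors' deposited tables for TCPMOH and TCPM, nr5a1a (base means of 10.9 and 11.5) and esr1 (11.9 and 12.8) lay just inside it. Outside it were nr5a1b (8.86 and 11.4), which missed it for TCPMOH alone, and pgr (8.68 and 7.23). Further below lay nr0b2b (4.11 and 5.30). The symbol nr2c2ap matches too, although its product is a partner of the receptor Nr2c2 and no receptor itself. The genes are sorted into 8 groups by ligand and family.

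Wild-type AB zebrafish were exposed through the water, between 24 and 100 hours after fertilization, to 50 nM TCPMOH (tris(4-chlorophenyl)methanol), 50 nM TCPM (tris(4-chlorophenyl)methane) or 0.01% DMSO by volume as the vehicle control. The central carbon bears a hydroxyl group in TCPMOH and a hydrogen in TCPM. How much vehicle the compound groups received was not given in the labels. Each of the 3 groups had 5 samples, 15 in all, each a pool of 8 to 10 whole larvae aged 100 hours after fertilization. The deposited tables rest on 4 libraries per group, with the same 4 DMSO libraries in both. A DMSO mean that lies high or low by chance thus moves both comparisons the same way. Like changes with both compounds are therefore not independent results. Because whole larvae were used, fewer cells of a type and less RNA per cell cannot be told apart.

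Reads assigned to genes were estimated at 18.1 to 25.7 M per library for the TCPMOH comparison and at 18.2 to 25.9 M for the TCPM comparison. Of 42 organ markers, 38 were found on a single row with a base mean of at least 10. The other symbols may be absent, repeated or low in reads. Base means were 344 or more for liver, gut, pancreas, photoreceptors, neurons, muscle, heart, red blood cells and cartilage. For the germ line they were 20.3 or more. Red blood cells were read by 1 gene, alas2. The tables hold no values per library, so the spread inside a group is seen through the standard errors alone, and whether single libraries of the groups overlap could not be seen. Group means below were recovered from the deposited tables on a common scale. Ratios to DMSO are before shrinkage, the pull toward 0 that DESeq2 applies to uncertain fold changes, and are followed by 95% intervals. Log2 fold changes are the shrunken ones, with the sign turned to compound over DMSO, and ± marks their standard error. The median half-width of the 95% interval of a receptor gene, before shrinkage, was 0.24 in log2 with TCPMOH and 0.21 with TCPM.

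Larvae given TCPMOH had less nr1d4b, nr2e3 and nr0b1 and more nr1i2 transcript than DMSO larvae, and larvae given TCPM had less nr2e3 and nr0b1. DESeq2 called 4 of the 48 receptor genes with an adjusted p for TCPMOH, at a threshold of 0.05, against 2.55% of all genes. Of these 1 was higher (1.54% of all genes) and 3 were lower (1.00%). For TCPM it called 2 of 48, against 1.89% of all genes, with 0 higher (1.27%) and 2 lower (0.616%). The authors' filter on low means left esr1 and nr5a1a without an adjusted p. At an unadjusted p under 0.05 stood 14 of 50 with TCPMOH, 6 higher and 8 lower, against 9.27% of all genes tested (5.02% higher and 4.25% lower). With TCPM 13 of 50 stood there, 5 higher and 8 lower, against 8.50% (4.88% higher and 3.62% lower). The counts given below for single receptor groups are to be read beside these shares of all genes. In groups so small, a count of 0 called says little about the group. The median base mean of the receptor genes was 309 in the TCPMOH table (all genes tested: 277) and 331 in the TCPM table (all genes tested: 289.7). Their median log2 fold change was -0.02 with TCPMOH and -0.0011 with TCPM, beside -0.003 with TCPMOH and -0.00029 with TCPM over all genes tested.

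**Figure D1:**
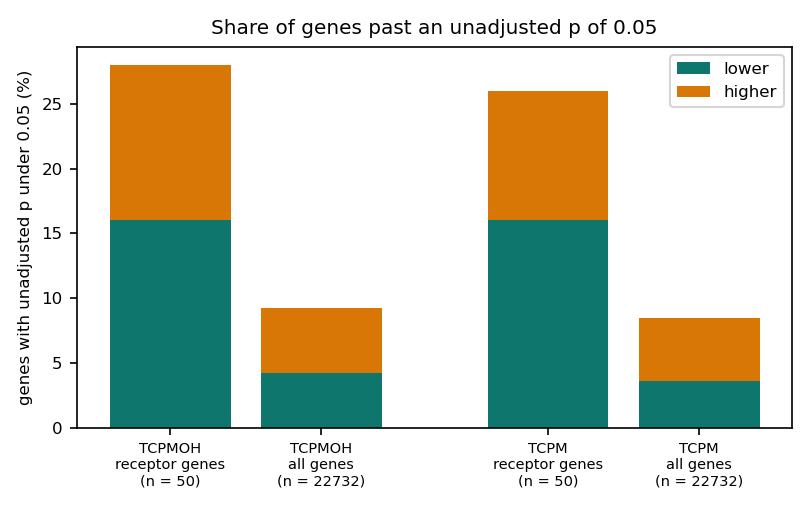
Percent of genes with an unadjusted DESeq2 p under 0.05 (vertical axis), split into lower and higher, for the 50 nuclear receptor genes and for all 22732 genes tested, TCPMOH and then TCPM against the same DMSO libraries. The receptor bars reach 28% and 26%, the bars of all genes 9.27% and 8.50%.

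**Figure D2:**
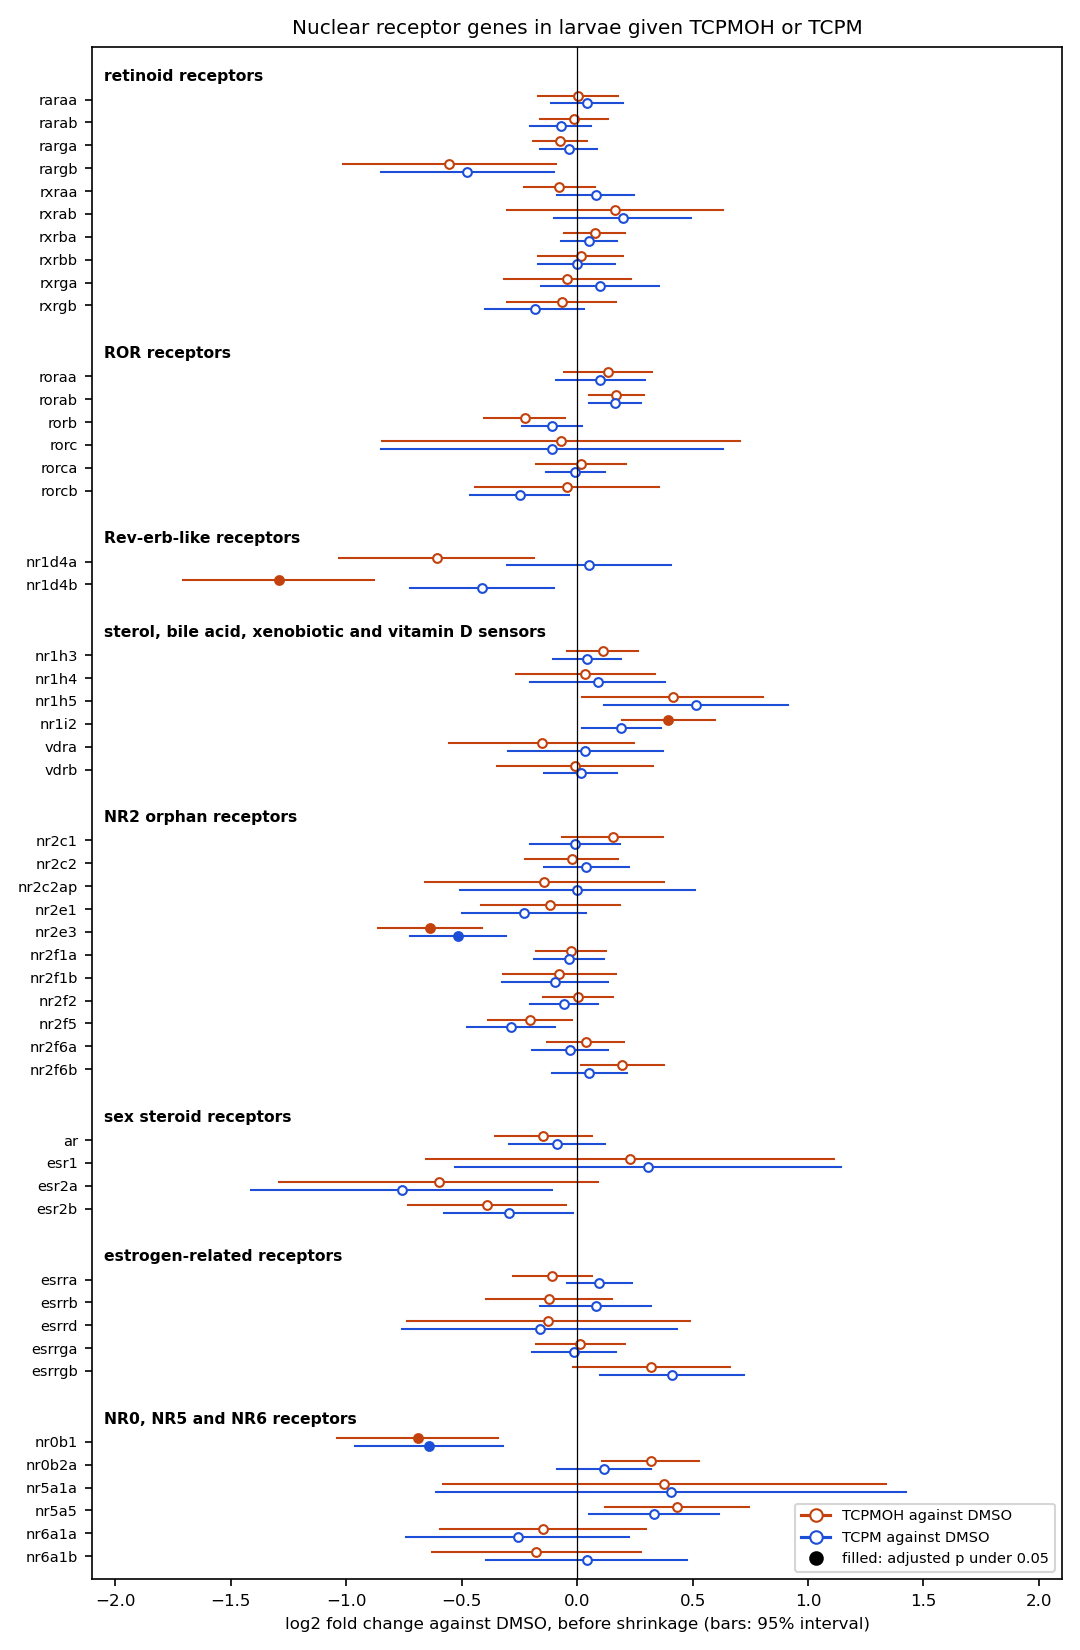
Log2 fold change against DMSO before shrinkage (horizontal axis) of each of the 50 nuclear receptor genes, in 8 groups, with TCPMOH drawn above TCPM and bars for 95% intervals. Filled points passed an adjusted p of 0.05, and these are nr1d4b, nr2e3, nr0b1 and nr1i2 for TCPMOH and nr2e3 and nr0b1 for TCPM.

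Receptors of the Rev-erb type sit in the clock, where they repress genes that carry ROR response elements, and nr1d4a and nr1d4b are fish members of that family. Transcript of nr1d4b (Entrez gene 571948) averaged 73.6 normalized reads in TCPMOH larvae, 136 in TCPM larvae and 181 in DMSO larvae. TCPMOH larvae were lowest, and TCPM larvae lay between them and the controls. The ratio to DMSO was 0.408 (0.307 to 0.543) with TCPMOH and 0.751 (0.605 to 0.932) with TCPM. The authors' deposited table put nr1d4b at -0.75 ± 0.12 with TCPMOH (adjusted p = 1.67e-07) and -0.27 ± 0.10 with TCPM (adjusted p = 0.243), so it fell with TCPMOH and did not pass with TCPM. Its duplicate nr1d4a averaged 56.2 normalized reads in TCPMOH larvae, 89.0 in TCPM larvae and 85.8 in DMSO larvae. For nr1d4a the authors' deposited table gave -0.35 ± 0.12 with TCPMOH (adjusted p = 0.128) and 0.03 ± 0.11 with TCPM (adjusted p = 0.993), and neither passed.

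**Figure D3:**
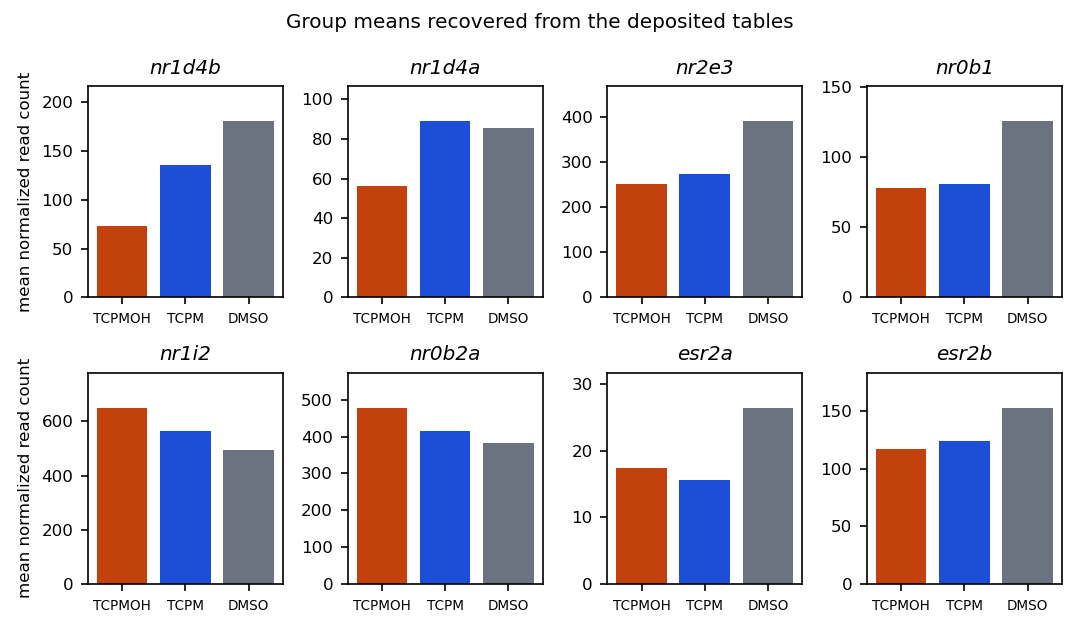
Mean normalized read count per group (vertical axes, each starting at 0) for 8 receptor genes, with TCPMOH, TCPM and DMSO from left to right; the tables give no spread per group, so the bars carry no error. Transcript of nr1d4b is lowest with TCPMOH (73.6 against 181 in DMSO), nr2e3 and nr0b1 are lower with either compound, and nr1i2 is highest with TCPMOH (650.0 against 494 in DMSO).

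ROR receptors bind the same elements as Rev-erb receptors and activate from them; in mammals rorb is best known from the retina and rorc from immune cells. None of the 6 ROR genes passed in DESeq2 with either compound, and 2 stood at an unadjusted p under 0.05 with each. The deepest-read of them, rorab, averaged 2489 normalized reads in TCPMOH larvae, 2475 in TCPM larvae and 2212 in DMSO larvae, ratios to DMSO of 1.13 (1.04 to 1.22) with TCPMOH and 1.12 (1.03 to 1.21) with TCPM. By the authors' deposited table rorab stood at 0.16 with TCPMOH (adjusted p = 0.136) and 0.15 with TCPM (adjusted p = 0.158). Its duplicate roraa was at 0.12 with TCPMOH (adjusted p = 0.812) and 0.08 with TCPM (adjusted p = 0.901) in the authors' deposited table. Levels of rorb ran the other way, at 1022 normalized reads in TCPMOH larvae, 1111 in TCPM larvae and 1197 in DMSO larvae. The authors' deposited table listed rorb at -0.20 with TCPMOH (adjusted p = 0.222) and -0.10 with TCPM (adjusted p = 0.722). The ratio of rorcb to DMSO was 0.970 (0.737 to 1.28) with TCPMOH and 0.842 (0.725 to 0.977) with TCPM, and that of rorca 1.01 (0.885 to 1.16) with TCPMOH and 0.995 (0.912 to 1.09) with TCPM. The wide interval of rorc, 0.952 (0.556 to 1.63) with TCPMOH and 0.927 (0.555 to 1.55) with TCPM, goes with its base means of 18.8 and 19.4 in the authors' deposited tables.

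The NR2 group holds orphan receptors of development. Its member nr2e3 is a photoreceptor gene that in mammals keeps rods from turning on cone genes. Transcript of nr2e3 (Entrez gene 492496) averaged 252 normalized reads in TCPMOH larvae, 274 in TCPM larvae and 391 in DMSO larvae. Both compounds gave means below the controls. The ratio to DMSO was 0.643 (0.549 to 0.752) with TCPMOH and 0.699 (0.606 to 0.807) with TCPM. In both comparisons nr2e3 fell, and the authors' deposited table has it at -0.52 ± 0.09 with TCPMOH (adjusted p = 5.16e-06) and -0.42 ± 0.09 with TCPM (adjusted p = 0.000176).

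Photoreceptor markers are given beside nr2e3. Of 7, none with a base mean below 1518, DESeq2 called 1 with TCPMOH, the blue cone opsin gene opn1sw2, which was lower, and 0 with TCPM, where 1 stood at an unadjusted p under 0.05. For opn1sw2 the authors' deposited table gave -0.34 with TCPMOH (adjusted p = 0.000207) and -0.17 with TCPM (adjusted p = 0.256). The rod opsin gene rho was at 0.04 with TCPMOH (adjusted p = 0.979) and 0.07 with TCPM (adjusted p = 0.875) by the authors' deposited table. The photoreceptor regulator gene crx had -0.10 with TCPMOH (adjusted p = 0.749) and -0.11 with TCPM (adjusted p = 0.67) in the authors' deposited table. Summed over the 7 markers the level was 87075 normalized reads in TCPMOH larvae, 89216 in TCPM larvae and 90885.5 in DMSO larvae, ratios to DMSO of 0.958 with TCPMOH and 0.982 with TCPM. The largest shares of that sum were those of opn1sw1 and rho, at 29144 and 28960 normalized reads in TCPMOH larvae. The part of photoreceptor RNA in the values of nr2e3 was not tested.

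Among the other NR2 genes the COUP transcription factor genes direct vessel, nerve and head patterning. The fish gene nr2f5 averaged 487 normalized reads in TCPMOH larvae, 460.3 in TCPM larvae and 561 in DMSO larvae. The authors' deposited table showed nr2f5 at -0.18 ± 0.08 with TCPMOH (adjusted p = 0.399) and -0.24 ± 0.08 with TCPM (adjusted p = 0.126), and it did not pass. The deepest-read gene of the group, nr2f2, which specifies veins in mouse, had ratios to DMSO of 1.00 (0.903 to 1.11) with TCPMOH and 0.961 (0.867 to 1.06) with TCPM. Its relative nr2f6b stood at 0.17 with TCPMOH (adjusted p = 0.431) and 0.05 with TCPM (adjusted p = 0.959) by the authors' deposited table. The duplicate nr2f6a was at 0.03 with TCPMOH (adjusted p = 0.981) and -0.03 with TCPM (adjusted p = 0.985) by the authors' deposited table. The remaining 6, nr2c1, nr2c2, nr2c2ap, nr2e1, nr2f1a and nr2f1b, had unadjusted p values above 0.05 in DESeq2 with both compounds.

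The NR0 receptors lack the usual DNA-binding domain and repress other receptors. Dax1, the product of nr0b1, represses the steroidogenic factor Nr5a1 and in mammals is needed for adrenal and gonad development. Transcript of nr0b1 (Entrez gene 100001692) averaged 77.9 normalized reads in TCPMOH larvae, 80.7 in TCPM larvae and 126 in DMSO larvae. Levels with either compound were below the controls. The ratio to DMSO was 0.619 (0.487 to 0.788) with TCPMOH and 0.641 (0.514 to 0.801) with TCPM. It fell in both comparisons, standing at -0.46 ± 0.12 with TCPMOH (adjusted p = 0.00637) and -0.41 ± 0.10 with TCPM (adjusted p = 0.00786) by the authors' deposited table.

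The relative nr0b2a encodes Shp, which in mammalian liver is induced by the bile acid receptor and represses bile acid synthesis. It averaged 478 normalized reads in TCPMOH larvae, 416 in TCPM larvae and 384 in DMSO larvae. By the authors' deposited table nr0b2a was at 0.27 ± 0.09 with TCPMOH (adjusted p = 0.0921) and 0.09 ± 0.08 with TCPM (adjusted p = 0.878). The NR5 gene nr5a5 averaged 446 normalized reads in TCPMOH larvae, 416 in TCPM larvae and 331 in DMSO larvae. For nr5a5 the authors' deposited table gave 0.31 ± 0.11 with TCPMOH (adjusted p = 0.161) and 0.23 ± 0.10 with TCPM (adjusted p = 0.385). Both genes had more reads with each compound than with DMSO, and neither passed the adjusted threshold. The low-read nr5a1a and the pair nr6a1a and nr6a1b, whose mouse counterpart silences pluripotency genes, had unadjusted p values above 0.05 with both compounds.

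The sensors of sterols, bile acids, foreign chemicals and vitamin D pair with retinoid X receptors. The gene that rose was nr1i2, which encodes the pregnane X receptor, a broad detector of drugs and pollutants that turns on genes of drug metabolism. Transcript of nr1i2 (Entrez gene 565875) averaged 650.0 normalized reads in TCPMOH larvae, 564 in TCPM larvae and 494 in DMSO larvae. TCPMOH larvae were highest, and TCPM larvae lay between. The ratio to DMSO was 1.32 (1.14 to 1.51) with TCPMOH and 1.14 (1.01 to 1.29) with TCPM. The authors' deposited table had nr1i2 at 0.34 ± 0.09 with TCPMOH (adjusted p = 0.00737) and 0.16 ± 0.08 with TCPM (adjusted p = 0.454), so it passed with TCPMOH and not with TCPM.

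The bile acid receptor relative nr1h5 averaged 88.8 normalized reads in TCPMOH larvae, 95.3 in TCPM larvae and 66.7 in DMSO larvae. In the authors' deposited table nr1h5 stood at 0.25 ± 0.12 with TCPMOH (adjusted p = 0.462) and 0.27 ± 0.11 with TCPM (adjusted p = 0.273), and it did not pass. The oxysterol receptor gene nr1h3, the bile acid receptor gene nr1h4 and the vitamin D receptor genes vdra and vdrb had unadjusted p values above 0.05 with both compounds. The ratio to DMSO of the most deeply read, vdrb, was 0.993 (0.786 to 1.25) with TCPMOH and 1.01 (0.906 to 1.13) with TCPM, and that of its duplicate vdra 0.899 (0.681 to 1.19) with TCPMOH and 1.03 (0.812 to 1.29) with TCPM.

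None of the 10 retinoid receptor genes passed in DESeq2 with either compound, and 1 stood at an unadjusted p under 0.05 with each, the retinoic acid receptor gene rargb. It averaged 78.6 normalized reads in TCPMOH larvae, 83.0 in TCPM larvae and 115 in DMSO larvae. The ratio to DMSO was 0.681 (0.495 to 0.938) with TCPMOH and 0.719 (0.554 to 0.932) with TCPM. The authors' deposited table placed rargb at -0.29 ± 0.12 with TCPMOH (adjusted p = 0.322) and -0.27 ± 0.11 with TCPM (adjusted p = 0.289). Its duplicate rarga, read more deeply, had ratios of 0.950 (0.877 to 1.03) with TCPMOH and 0.974 (0.895 to 1.06) with TCPM. The deepest-read of the 50, the retinoid X receptor gene rxrba, had ratios of 1.05 (0.962 to 1.15) with TCPMOH and 1.04 (0.952 to 1.13) with TCPM, and its duplicate rxrbb 1.01 (0.890 to 1.15) with TCPMOH and 0.998 (0.890 to 1.12) with TCPM. The intervals of rarga, rxrba and rxrbb all span 1.

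Of the sex steroid receptor genes, the estrogen receptor beta genes esr2a and esr2b had fewer reads with both compounds and did not pass. Transcript of esr2b averaged 117 normalized reads in TCPMOH larvae, 124 in TCPM larvae and 153 in DMSO larvae. That of esr2a averaged 17.5 normalized reads in TCPMOH larvae, 15.6 in TCPM larvae and 26.5 in DMSO larvae. By the authors' deposited table esr2b was at -0.26 with TCPMOH (adjusted p = 0.376) and -0.21 with TCPM (adjusted p = 0.513). For esr2a the authors' deposited table gave -0.20 with TCPMOH (adjusted p = 0.666) and -0.23 with TCPM (adjusted p = 0.395). The androgen receptor gene ar had ratios to DMSO of 0.903 (0.780 to 1.05) with TCPMOH and 0.941 (0.815 to 1.09) with TCPM, and esr1, with few reads, 1.17 (0.636 to 2.16) with TCPMOH and 1.24 (0.694 to 2.21) with TCPM. None of these 4 genes was called in DESeq2, and 1 with TCPMOH and 2 with TCPM had an unadjusted p under 0.05.

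The estrogen-related receptors bind no estrogen and are known for driving mitochondrial genes. None of the 5 genes passed in DESeq2, with 0 at an unadjusted p under 0.05 for TCPMOH and 1 for TCPM, esrrgb. It averaged 105 normalized reads in TCPMOH larvae, 112 in TCPM larvae and 84.2 in DMSO larvae. The authors' deposited table set esrrgb at 0.21 ± 0.12 with TCPMOH (adjusted p = 0.587) and 0.27 ± 0.10 with TCPM (adjusted p = 0.249). Its duplicate esrrga was at 0.01 with TCPMOH (adjusted p = 0.992) and -0.01 with TCPM (adjusted p = 0.997) in the authors' deposited table. Transcript of esrra averaged 761 normalized reads in TCPMOH larvae, 876 in TCPM larvae and 821 in DMSO larvae, so that its means lay on either side of the controls.

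The compounds were then set against each other at the same dose and time, by subtracting the log2 fold change with TCPM from that with TCPMOH. This 1 pair was compared, with p-values adjusted over 22732 genes. Of 50 receptor genes 1 passed, nr1d4b, lower with TCPMOH, against 0.453% of all genes (0.242% higher and 0.211% lower). Those with an unadjusted p under 0.05 numbered 5, 2 higher and 3 lower, against 4.62% (2.27% higher and 2.35% lower). For nr1d4b the difference by the two-sided normal test was -0.48 (95% interval -0.71 to -0.26, adjusted p = 0.0080). Before shrinkage it was -0.88 (95% interval -1.25 to -0.51, adjusted p = 0.00216), a level in TCPMOH larvae of 0.544 times that in TCPM larvae. With the covariance from the shared DMSO libraries set to 0 the adjusted p of nr1d4b was 0.909, past the threshold no longer. That setting, also used below, ignores that the DMSO libraries are shared. The duplicate nr1d4a had a difference of -0.38 (95% interval -0.60 to -0.15, adjusted p = 0.158). The other 3 were esrra at -0.18 (95% interval -0.32 to -0.04, adjusted p = 0.624), nr1i2 at 0.17 (95% interval 0.01 to 0.33, adjusted p = 0.995) and nr0b2a at 0.17 (95% interval 0.0022 to 0.35, adjusted p = 1.00). For the genes that fell with both compounds the difference did not pass, at -0.11 (95% interval -0.28 to 0.07, adjusted p = 1.00) for nr2e3 and -0.05 (95% interval -0.27 to 0.17, adjusted p = 1.00) for nr0b1, intervals that leave room for a difference in either direction. Among the Rev-erb genes outside the 50, nr1d1 had a difference of -0.34 (95% interval -0.46 to -0.22, adjusted p = 4.16e-05) and nr1d2a one of -0.40 (95% interval -0.53 to -0.26, adjusted p = 1.69e-05), while nr1d2b, at -0.13 (95% interval -0.24 to -0.02, adjusted p = 0.809), did not pass. With the covariance at 0 neither nr1d1 (adjusted p = 0.10) nor nr1d2a (adjusted p = 0.0711) passed. The receptor gene nr4a1, also outside the 50, had a difference of -0.55 (95% interval -0.68 to -0.41, adjusted p = 5.36e-12). It passed with the covariance at 0 as well (adjusted p = 7.55e-05).

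**Figure D4:**
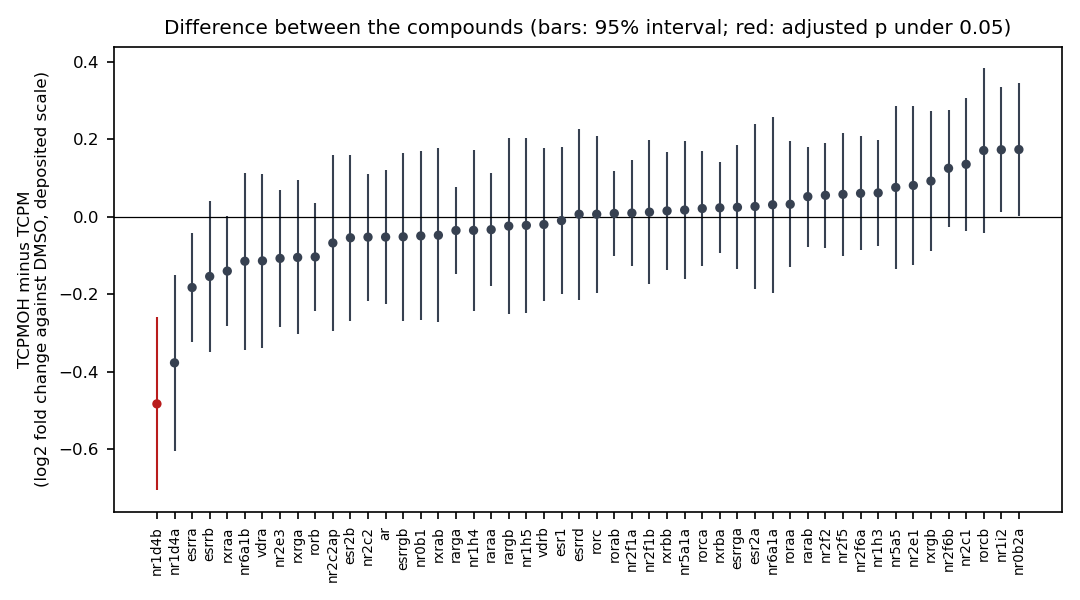
Difference between the compounds, TCPMOH minus TCPM, in shrunken log2 fold change against DMSO (vertical axis) for the 50 nuclear receptor genes in order of size, with 95% intervals. The gene farthest from 0 is nr1d4b at -0.48, the only one past an adjusted p of 0.05, followed by nr1d4a at -0.38.

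Genes that make, break down or answer the ligands of these receptors were taken from lists and are given as counts, to be read beside the shares of all genes above. Of 19 measured genes of retinoic acid supply and breakdown, 4 rose and 0 fell with each compound. Their median log2 fold change was 0.06 with TCPMOH and 0.12 with TCPM. With each compound the risers were stra6, whose product takes retinol into cells, the retinol carrier gene rbp5, the carotene-cleaving enzyme gene bco1 and its relative bco1l. Transcript of stra6 averaged 973 normalized reads in TCPMOH larvae, 914 in TCPM larvae and 540.4 in DMSO larvae. For stra6 the authors' deposited table gave 0.73 ± 0.09 with TCPMOH (adjusted p = 4.05e-14) and 0.66 ± 0.07 with TCPM (adjusted p = 3.15e-16). It put rbp5, again in the authors' deposited table, at 0.53 with TCPMOH (adjusted p = 1.80e-06) and 0.45 with TCPM (adjusted p = 1.88e-05). Values of bco1l were 0.64 with TCPMOH (adjusted p = 2.10e-08) and 0.45 with TCPM (adjusted p = 0.000112) in the authors' deposited table. Those of bco1 were 0.40 with TCPMOH (adjusted p = 0.00119) and 0.25 with TCPM (adjusted p = 0.0231) by the authors' deposited table. The retinoic acid hydroxylase genes, whose products clear the hormone, did not pass. By the authors' deposited table cyp26a1 was at 0.13 with TCPMOH (adjusted p = 0.841) and 0.15 with TCPM (adjusted p = 0.699). For cyp26b1 the authors' deposited table gave -0.16 with TCPMOH (adjusted p = 0.495) and -0.09 with TCPM (adjusted p = 0.845). Their relative cyp26c1 stood at -0.08 with TCPMOH and 0.12 with TCPM. Over the whole list, 5 genes were higher and 2 lower at an unadjusted DESeq2 p under 0.05 with TCPMOH. With TCPM 5 were higher and 1 lower.

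Of 8 measured genes listed as targets of the pregnane X receptor DESeq2 called 3 higher with TCPMOH and 2 with TCPM, and 0 lower. Whether the receptor drives them in these larvae was not tested. At an unadjusted p under 0.05 stood 5 with TCPMOH, all higher. With TCPM 4 stood there as higher and 1 as lower, the transporter gene abcb5 at -0.26. The list medians were 0.19 with TCPMOH and 0.14 with TCPM. The drug-metabolizing monooxygenase gene cyp3a65 rose with both, at 0.39 ± 0.10 with TCPMOH (adjusted p = 0.00565) and 0.36 ± 0.07 with TCPM (adjusted p = 0.00020) in the authors' deposited table. So did the glutathione transferase gene gsta.1, at 0.32 ± 0.10 with TCPMOH (adjusted p = 0.0439) and 0.32 ± 0.08 with TCPM (adjusted p = 0.00261) by the authors' deposited table. The third, the monooxygenase gene cyp2k18, averaged 880.3 normalized reads in TCPMOH larvae, 590.4 in TCPM larvae and 564 in DMSO larvae. The authors' deposited table put cyp2k18 at 0.48 ± 0.11 with TCPMOH (adjusted p = 0.000655) and 0.05 ± 0.10 with TCPM (adjusted p = 0.971). Its difference between the compounds passed as well, at 0.43 (95% interval 0.23 to 0.63, adjusted p = 0.00791) by the two-sided normal test, and no longer with the covariance at 0 (adjusted p = 0.909).

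Carotene cleavage and the pregnane X receptor act in the intestine, and its markers are given beside them. Of 5, none with a base mean below 2852, 1 rose with TCPMOH (fabp2) and 2 with TCPM (fabp2 and vil1). At an unadjusted p under 0.05 in DESeq2, 3 of the 5 stood higher and 0 lower with each compound. The summed level of the 5 was 43974 normalized reads in TCPMOH larvae, 44052 in TCPM larvae and 37695.5 in DMSO larvae. The ratios to DMSO were 1.17 with TCPMOH and 1.17 with TCPM. Summed liver markers were at 0.933 and 0.948 of DMSO in the same order, with 0 of 5 called by DESeq2 and 0 at an unadjusted p under 0.05. The part of intestinal RNA in the values of nr1i2, its listed targets, bco1 and bco1l was not tested.

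Among the vitamin D genes, enzyme genes were called and the receptor genes vdra and vdrb were not. Of 8 genes of that list 1 rose with each compound, and the medians were 0.04 with TCPMOH and 0.04 with TCPM. The gene cyp24a1, whose product breaks down active vitamin D, averaged 491 normalized reads in TCPMOH larvae, 384 in TCPM larvae and 297 in DMSO larvae. The gene cyp27b1, whose product makes the active form, averaged 341 normalized reads in TCPMOH larvae, 538 in TCPM larvae and 272 in DMSO larvae. Thus cyp24a1 was highest with TCPMOH and cyp27b1 with TCPM. By the authors' deposited table cyp24a1 was at 0.51 ± 0.12 with TCPMOH (adjusted p = 0.00178) and 0.19 ± 0.10 with TCPM (adjusted p = 0.613). For cyp27b1 the authors' deposited table gave 0.17 ± 0.12 with TCPMOH (adjusted p = 0.781) and 0.69 ± 0.10 with TCPM (adjusted p = 6.91e-09). The difference TCPMOH minus TCPM passed the two-sided normal test for cyp27b1, at -0.53 (95% interval -0.74 to -0.31, adjusted p = 0.000984), and did not for cyp24a1, at 0.32 (95% interval 0.10 to 0.54, adjusted p = 0.405). With the covariance at 0 that of cyp27b1 did not pass either (adjusted p = 0.394).

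Of 20 measured target genes of the oxysterol and bile acid receptors 1 rose with each compound, the sterol pump gene abcg8 with TCPMOH and the lipid synthesis regulator gene srebf1 with TCPM. The authors' deposited table listed abcg8 at 0.37 with TCPMOH (adjusted p = 0.0188) and 0.22 with TCPM (adjusted p = 0.405). Values of srebf1 were 0.12 with TCPMOH (adjusted p = 0.669) and 0.20 with TCPM (adjusted p = 0.0428) by the authors' deposited table. The medians of the list were -0.02 with TCPMOH and 0.03 with TCPM. At an unadjusted DESeq2 p under 0.05, 2 genes of the list were higher and 3 lower with TCPMOH. With TCPM 3 were higher and 1 lower. The authors' deposited table had abcb11b at -0.30 with TCPMOH (adjusted p = 0.057) and -0.09 with TCPM (adjusted p = 0.889), so it did not pass. The bile salt importer gene slc10a2 was at -0.32 with TCPMOH (adjusted p = 0.0599) and -0.31 with TCPM (adjusted p = 0.0566) by the authors' deposited table, and did not pass. Of 24 listed symbols of steroid synthesis and estrogen response 9 were found on a single row with a base mean of at least 10. The aromatase genes cyp19a1a and cyp19a1b and the vitellogenin genes were not among them. Symbols left out may be absent, repeated or low in reads, so their absence does not show low expression. Of the 9, 1 fell with TCPMOH, hsd11b2, which inactivates cortisol, and DESeq2 called 0 with TCPM, where 2 stood at an unadjusted p under 0.05. The authors' deposited table showed hsd11b2 at -0.34 with TCPMOH (adjusted p = 0.0231) and -0.20 with TCPM (adjusted p = 0.344). The medians of that list were -0.03 with TCPMOH and -0.01 with TCPM.

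Of 29 measured coactivator and corepressor genes DESeq2 called 0 with either compound, with 0 at an unadjusted p under 0.05 for TCPMOH and 2 for TCPM, and medians of 0.01 with TCPMOH and -0.0041 with TCPM. Of 12 genes partnered with or driven by estrogen-related receptors it called 0 with TCPMOH, where 4 stood at an unadjusted p under 0.05, and 1 rose with TCPM, the pyruvate dehydrogenase kinase gene pdk2b. Values of pdk2b were 0.25 with TCPMOH (adjusted p = 0.237) and 0.44 with TCPM (adjusted p = 0.000132) by the authors' deposited table. The medians of that list were 0.06 with TCPMOH and 0.03 with TCPM. Of 21 measured nuclear receptor genes outside the 50, which are those of the thyroid hormone, fatty acid and Hnf4 receptors and those left out by the rule, 3 fell with TCPMOH (nr1d1, nr1d2a and nr4a1) and 2 with TCPM (nr1d2a and nr4a1), with medians of -0.06 with TCPMOH and -0.01 with TCPM.

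**Figure D5:**
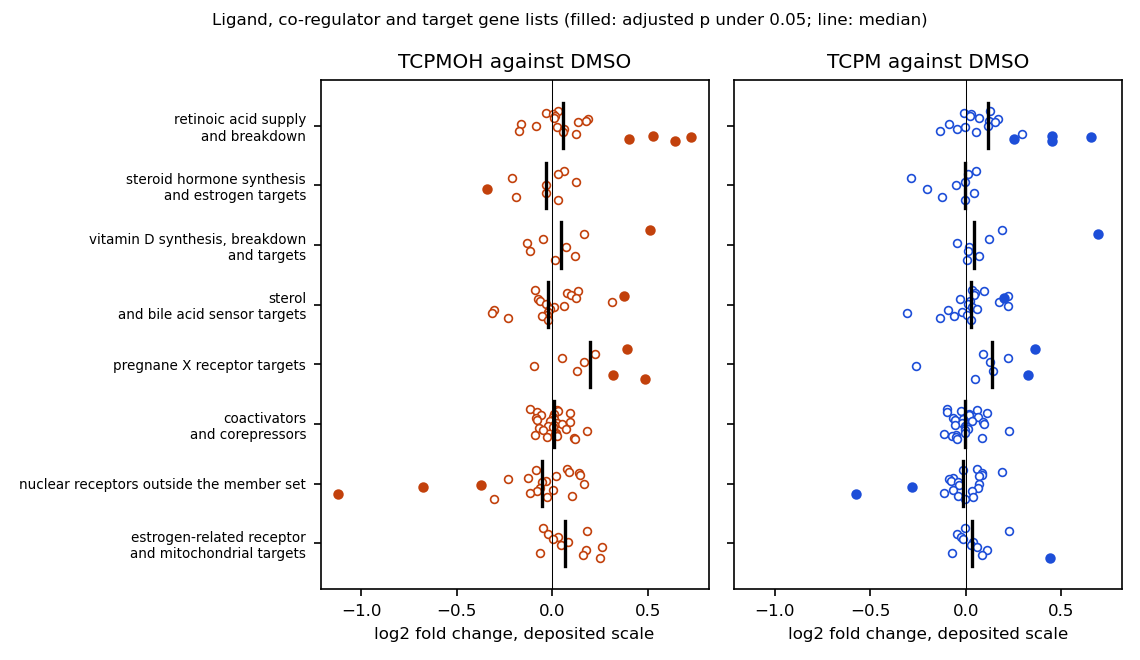
Log2 fold change against DMSO, shrunken (horizontal axes), of the measured genes of 8 lists, TCPMOH on the left and TCPM on the right, with filled points for an adjusted p under 0.05 and a line at each list's median. The medians lie between -0.06 and 0.19 with TCPMOH and between -0.01 and 0.14 with TCPM.

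Among 14 pairs of duplicate genes in the set, DESeq2 called both copies of 0 pairs with either compound, and 1 copy of 1 pair, nr1d4b with TCPMOH. Of all genes it called 2.55% with TCPMOH and 1.89% with TCPM. Counts this small do not show whether the copies of a pair respond alike. Reads that match both copies could be split between them, and the sources used here do not say how such reads were counted.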

How the data were processed

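The members and gene lists were chosen with earlier results of these data known. Poly(A) RNA of pooled larvae was sequenced in pairs with a stranded kit, per the labels' protocols. FastQC, cutadapt, STAR, featureCounts and DESeq2 are named in the submitters' processing notes, without versions. The genome build was not given. The deposited base mean is the authors' normalized read signal averaged over libraries. The deposited log2 fold change, with its standard error, is DMSO over compound. The deposited Wald score is their quotient, and the deposited p-value and adjusted p-value belong to it. Columns holding values of single samples number 0.

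Genes with a lone read fell into 8 libraries per table. For 4 of them no such gene was without reads in the other table, which marks the shared DMSO libraries, and all deposited folds there were positive, so signs were turned. Shrinkage was undone with a normal prior of SD 0.248 for TCPMOH and 0.216 for TCPM. DMSO means computed from each table then differed by a median of 0.00064 in log2 over the 50 members. TCPMOH-table levels were moved to the TCPM-table scale (0.06 in log2).

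The compounds were compared by a two-sided normal test on the difference of the deposited fold changes, with a covariance, for the shared DMSO libraries, of both standard errors multiplied and divided by 2, and Benjamini-Hochberg adjustment. P-values measure the spread between pools, which may be technical in part. Named members are those with an unadjusted p under 0.05 in any comparison, the deepest-read and most changed of each group, and their duplicates; of the lists, called genes and a few classic examples. All 50 members matched RefSeq by Entrez identifier. Python 3.11.15, numpy 2.4.6, pandas 2.3.3 and SciPy 1.17.1 were used.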

Additional observations from a re-analysis of the deposited data

Results flagged for a closer look

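The response of nr1d4b differed between the compounds in the main test. The difference TCPMOH minus TCPM was -0.48 in shrunken log2 fold change against the shared DMSO libraries and -0.88 before shrinkage. Group means, which are before shrinkage, were 73.6 normalized reads in TCPMOH larvae and 136 in TCPM larvae. The test of the difference itself passed (two-sided normal test, Benjamini-Hochberg adjusted p = 0.0080). With the covariance from the shared DMSO libraries set to 0, which ignores the sharing, the same test did not pass (adjusted p = 0.909). No groups of single libraries could be searched for outlying values, because the tables give none.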

How the results depend on the processing

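The count of receptor genes called was 4 with TCPMOH and 2 with TCPM when p-values were adjusted over every gene, over genes whose base mean reached 50, after centring on the median of all genes, and before shrinkage, where the Wald test is the same by construction. At a threshold of 0.1 it was 5 with TCPMOH, nr0b2a being added, and 2 with TCPM. Leaving out nr2c2ap, an alternative chosen after seeing the data, changed neither count. For TCPMOH minus TCPM the count was 1, but 0 with the covariance set to 0, which ignores that the DMSO libraries are shared. The adjusted p of nr1d4b ranged from 0.0022 to 0.909 over the alternatives. Median fold changes of the receptor genes moved by less than the median standard error; that with TCPM was 0.0052 over members whose base mean reached 50, so its sign is not settled. Undoing shrinkage moved 17 of 58 values of named genes by more than 1 standard error. By construction it moves values only away from 0 and can reverse none. Of the 17, 5 were called ones, those of nr2e3 and nr0b1 with both compounds and of nr1d4b with TCPMOH. With the covariance at 0 the differences of nr1d1, nr1d2a, cyp2k18 and cyp27b1 did not pass either, while that of nr4a1 passed. Leaving out each library was not run, as the tables hold no values per library. No paired analysis was possible because the groups share no sample numbers and the tables hold no values per library. For the genes with base means of 10.9 to 23.6 (esr1, esr2a, nr5a1a, rorc and esrrd), depth limits what could be seen.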
